A study of Drosophila melanogaster with 9 samples.

Results

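Tetraspanins are a family of small proteins of the plasma and endosomal membranes, and fly larvae express many of them. The family was taken from the gene names of the deposited table: every name that starts with Tsp followed by a digit, and lbm (late bloomer, a tetraspanin with its own name). This gave 35 gene names on 35 of the 15809 loci of the table. The locus of Tsp42Eb also carried Tsp42Ec, the locus of Tsp42Ej also carried Tsp42Ek, and Tsp42Eb and Tsp5D each had a second locus of low value. Of the 35 loci, 30 passed the filter on low values (at least 1 FPKM in at least 3 libraries), and 26 of these reached it in all 9 libraries. The locus of Tsp5D passed only through the wild types. The gene Tsp, which encodes thrombospondin, is no tetraspanin and was not taken.

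A tetraspanin crosses the membrane several times and carries a short and a long extracellular loop, and the long loop binds partner proteins. In animals from flies to mammals, tetraspanins gather integrins, metalloproteases and cell junction proteins into patches of the membrane, sort cargo in late endosomes, and are common on the vesicles that cells release. In the fly, Tsp2A builds the smooth septate junction of the gut, a group made of Tsp3A, Tsp26A and Tsp86D helps the protease Kuzbanian to act in Notch signalling, and lbm acts where motor axons meet their muscles.

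The 9 RNA libraries came from whole wandering larvae of the third instar, raised on standard food at 25 C, in the w118 background. There were 3 libraries for each of 3 genotypes. Homozygotes (labelled Atg6D/Atg6D, or Atg6-/-) carried a mutant Atg6 allele on both chromosomes, heterozygotes (Atg6D/+, or Atg6-/+) on 1, and the wild type was w118 itself. Atg6, the fly counterpart of mammalian Beclin, belongs to a lipid kinase complex that autophagy and endosomal traffic need. The labels give neither the sex of the larvae nor how many were pooled, and call the libraries of a genotype repeats, so p-values here cover only the spread between libraries, which may be technical. Values are FPKM, which count sequenced fragments relative to transcript length and library size, so that levels can be compared between genes. Since whole larvae were sequenced, fewer cells of a type and less RNA per cell cannot be told apart.

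Atg6 was at 0 to 0.0563 FPKM in homozygotes, 7.58 to 8.89 FPKM in heterozygotes and 14.3 to 17.04 FPKM in wild types, as the labels have it. The depth of the libraries relative to wild type 1, read from the steps of their smallest values, ran from 0.787 to 1.28, and absolute depth is unknown. Homozygote 1 stood apart in the salivary gland glue genes: the 7 salivary gland markers summed to 4011, 23765 and 27104 FPKM in homozygotes 1 to 3, 51175 to 58498 FPKM in heterozygotes and 51401 to 74350 FPKM in wild types. Blood cell markers also differed: 5 of 7 lamellocyte markers rose in homozygotes, and the list summed to 1127 to 1271 FPKM there, against 417 to 481 FPKM in heterozygotes and 472 to 491 FPKM in wild types. The 10 plasmatocyte markers, of which 4 rose and 1 fell, summed to 720.2 to 934 FPKM in homozygotes, 408 to 470.3 FPKM in heterozygotes and 379 to 520.3 FPKM in wild types. Over all tested loci, 12.3% were called higher and 9.67% lower in homozygotes against wild types, by the test given below. No marker of these 3 lists was at 0 in any library, and the part of these cell types in the tetraspanin values was not tested.

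Tetraspanin transcripts made up more of the RNA in homozygotes. The 35 loci summed to 2267, 2059.5 and 2158 FPKM in homozygotes, 1765, 1572 and 1579 FPKM in heterozygotes and 1418, 1629 and 1398 FPKM in wild types. The homozygotes lay above all other libraries, while heterozygotes and wild types overlapped. As a share of all FPKM of a library, the family held 0.211, 0.264 and 0.218% in homozygotes, 0.161, 0.164 and 0.167% in heterozygotes and 0.188, 0.157 and 0.167% in wild types. The 10 highest loci of each library held 10.8 to 16.7% of its FPKM in homozygotes, 23.4 to 23.8% in heterozygotes and 19 to 24.2% in wild types, and the part of this difference in the family's share was not tested. Few genes carried the sum: the 2 most abundant loci, Tsp29Fb and Tsp29Fa, held 35.4% of the family's mean FPKM, and the 8 most abundant held 75.1%.

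In homozygotes against wild types, 11 of the 30 tested tetraspanin loci rose and 2 fell at an adjusted p under 0.05 (limma on log2(FPKM + 1), Benjamini-Hochberg over 10887 loci). That is 36.7% higher and 6.67% lower, beside 12.3% of all tested loci called higher and 9.67% called lower (22% in either direction). The loci that rose were Tsp29Fa, Tsp29Fb, Tsp2A, Tsp86D, Tsp96F and, in the Tsp42E gene cluster, Tsp42Eb/Tsp42Ec, Tsp42Ed, Tsp42Ee, Tsp42Ef, Tsp42El and Tsp42Er. The loci that fell were Tsp42Ep and Tsp42Ej/Tsp42Ek, both in the cluster. The median log2 fold change of the 30 loci was 0.21, against 0.01 over all tested loci. In each of the 11 that rose the 3 homozygotes lay above the 3 wild types, a pattern that 19.5% of all tested loci showed. The 3 homozygotes lay below the 3 wild types in 6 loci, beside 20.5% of all tested loci: the 2 that fell, and Tsp66A, Tsp97E, Tsp42A and Tsp5D, which did not pass the threshold. Of these Tsp5D had to be lower, since it entered the test only through the wild types. Without homozygote 1, 8 loci rose and 2 fell, beside 10.8% of all tested loci called higher and 8.94% called lower in that setting.

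**Figure D1:**
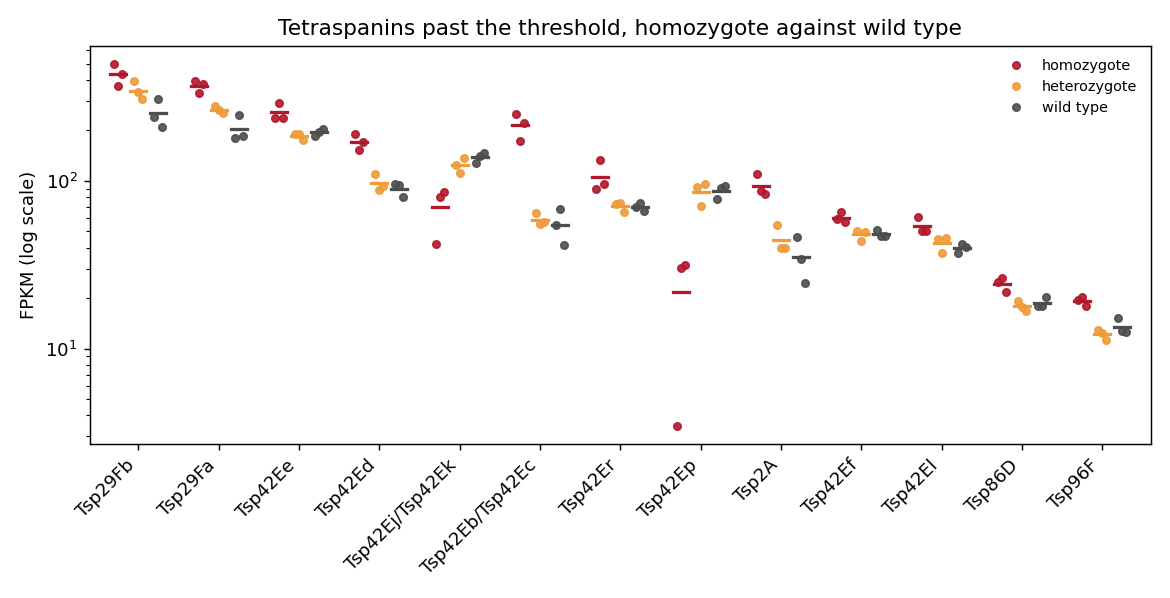
FPKM on a log scale of the 13 tetraspanin loci past the threshold in homozygotes against wild types, ordered by mean level. Each point is 1 library, with 3 per genotype, and bars are means. Homozygotes lie above wild types in 11 loci, and above heterozygotes too in all of these but Tsp29Fb; they lie below both in Tsp42Ej/Tsp42Ek and Tsp42Ep, where homozygote 1 is the lowest point.

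**Figure D2:**
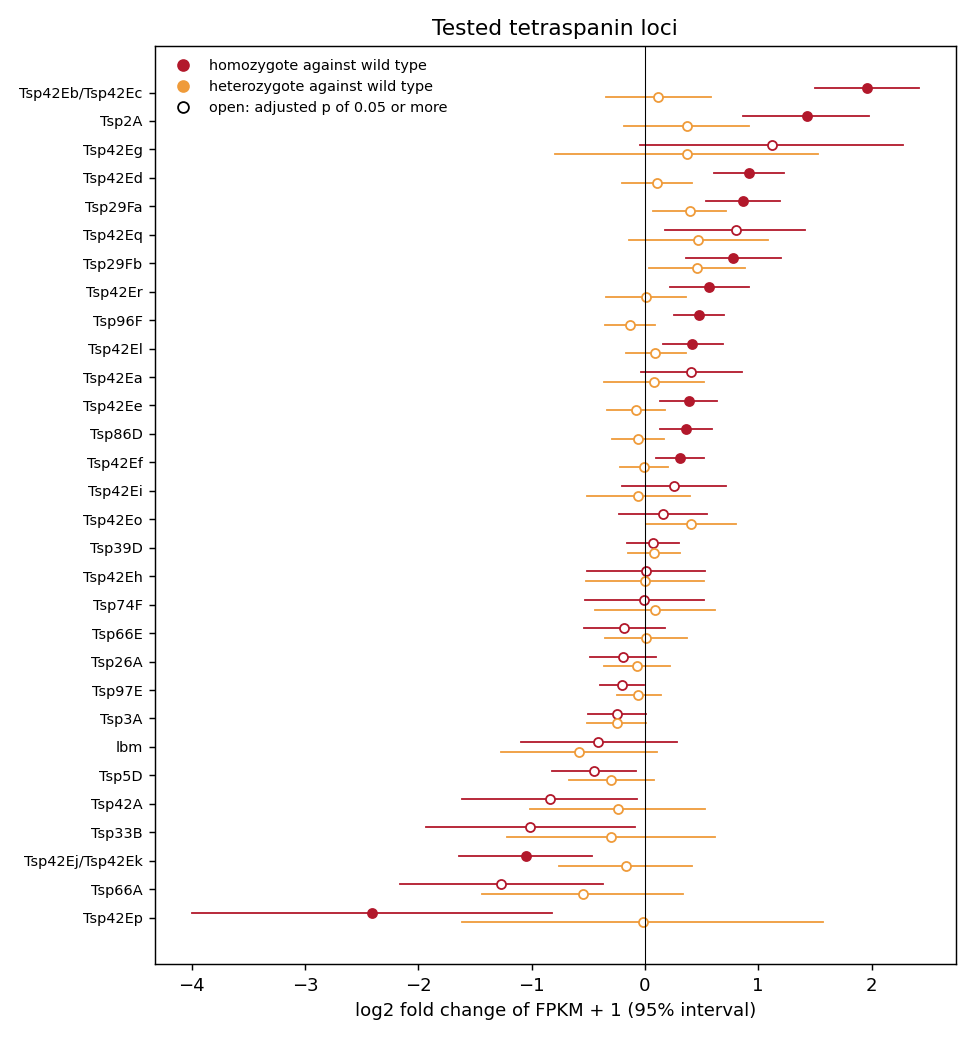
Log2 fold change of FPKM + 1 with its 95% interval for the 30 tested loci, in homozygotes and in heterozygotes, each against wild type. Filled points have an adjusted p under 0.05: 13 in homozygotes, none in heterozygotes.

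The Tsp42E cluster is a run of 18 tetraspanin genes, lbm among them, on chromosome arm 2R from 6992676 to 7066113 (BDGP6, Ensembl release 115), a span of 73.4 kb with 15 genes on the plus and 3 on the minus strand. It gave 17 loci, 15 of them tested. Of the 15, 6 rose and 2 fell in homozygotes against wild types (40.0% and 13.3%), with a median log2 fold change of 0.39. Of the 15 tested tetraspanin loci elsewhere in the genome, 5 rose (33.3%) and none fell, with a median of -0.18. Over all tested loci, 12.3% were called higher and 9.67% lower, and the 13.3% lower in the cluster is near the latter share. Before adjustment, 5 of those elsewhere were higher and 5 lower at p under 0.05, beside 19.5% and 21.6% of all tested loci. Among the 5 lower is Tsp5D, which had to be lower because it entered the test only through the wild types. Neighbours within the cluster did not all move one way: the 2 loci that fell lay between others that rose. Of the other genes of that span on loci of their own, pgant3, a glycosyltransferase gene, alone passed the filter, and it also rose, at 12.1, 15.8 and 11.9 FPKM in homozygotes, 10.9, 9.72 and 9.86 FPKM in heterozygotes and 10.2, 9.69 and 9.48 FPKM in wild types (log2 fold change 0.40 against wild types, adjusted p = 0.0425, limma).

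**Figure D3:**
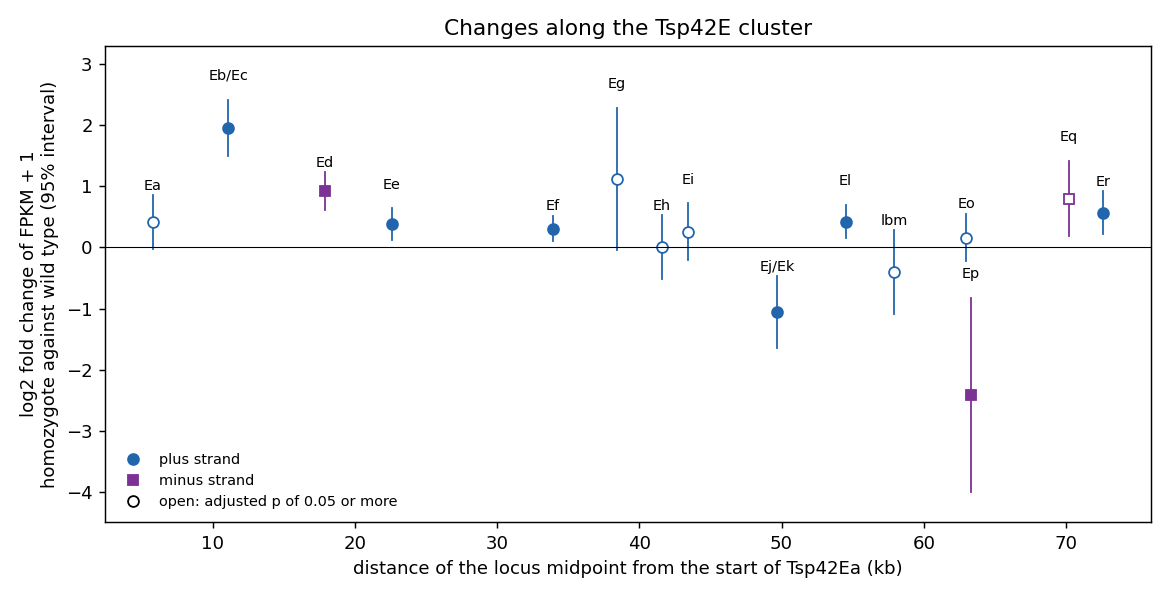
Log2 fold change of FPKM + 1 in homozygotes against wild types, with its 95% interval, for the 15 tested loci of the Tsp42E cluster, placed by the distance in kb from the start of Tsp42Ea to the middle of each locus. Colours and shapes mark the strand, and open points did not pass the threshold. Tsp42Eb/Tsp42Ec is highest at 1.96 and Tsp42Ep lowest at -2.41.

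The largest rise was at Tsp42Eb/Tsp42Ec, 2 genes on the plus strand near the start of the cluster (Tsp42Eb at 6998848 to 6999848, Tsp42Ec at 7006442 to 7008622). This locus was at 249, 173 and 222 FPKM in homozygotes, 64.3, 55.4 and 56.7 FPKM in heterozygotes and 54.7, 68.2 and 41.8 FPKM in wild types. All 3 homozygotes lay far above the other 6 libraries, which overlapped each other. The mean was 3.91 times that of wild types, with a log2 fold change of 1.96 (SE 0.20, adjusted p = 0.000895) against wild types and 1.84 (adjusted p = 0.00158, limma) against heterozygotes. Since both genes share 1 locus in the table, their parts in the rise cannot be separated. Tsp42Eb also lies within the span of Tsp42Ea on the same strand, over 1001 bases. How fragments were assigned between these 2 loci is not given in the sources used here. The second Tsp42Eb locus had 0.538 to 1.01 FPKM in homozygotes, 0.239 to 0.533 FPKM in heterozygotes and 0.454 to 0.533 FPKM in wild types.

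Tsp42Ed, the next gene along and on the minus strand (7009498 to 7011739), also rose. It was at 191, 152 and 170.3 FPKM in homozygotes, 111, 88.2 and 92.9 FPKM in heterozygotes and 95.5, 94.2 and 79.7 FPKM in wild types. The homozygotes again lay above both other genotypes without overlap. The ratio of means to wild types was 1.91, and the log2 fold change was 0.92 (SE 0.13, adjusted p = 0.00423) against wild types and 0.81 (adjusted p = 0.0108, limma) against heterozygotes. Leaving out any 1 library kept the rises of Tsp42Eb/Tsp42Ec and Tsp42Ed over wild types past the threshold, while that of Tsp42Ed over heterozygotes was lost without heterozygote 2 (adjusted p = 0.0604) or heterozygote 3 (adjusted p = 0.0566).

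Smaller rises were called at 4 other loci of the cluster. Tsp42Ee, the most abundant gene of the cluster, was at 236, 293 and 239 FPKM in homozygotes, 190.2, 189 and 175 FPKM in heterozygotes and 185, 195 and 205 FPKM in wild types. Tsp42Er was at 89.5, 133 and 95.8 FPKM in homozygotes, 73.0, 73.6 and 65.5 FPKM in heterozygotes and 70.1, 74.1 and 65.9 FPKM in wild types. In both, homozygote 2 was the highest library. Tsp42Ef was at 59.2, 65.0 and 56.7 FPKM in homozygotes, 50.6, 44.0 and 49.5 FPKM in heterozygotes and 51.0, 46.8 and 47.1 FPKM in wild types. Tsp42El was at 61.2, 50.6 and 50.4 FPKM in homozygotes, 45.2, 37.4 and 45.4 FPKM in heterozygotes and 37.4, 41.9 and 40.4 FPKM in wild types. Each of the 4 had its homozygotes above all other libraries by a narrow margin. The log2 fold changes against wild types were 0.39 for Tsp42Ee (SE 0.11, adjusted p = 0.0441), 0.57 for Tsp42Er (SE 0.15, adjusted p = 0.0371), 0.31 for Tsp42Ef (SE 0.09, adjusted p = 0.0453) and 0.42 for Tsp42El (SE 0.11, adjusted p = 0.0397, all limma). These calls stood close to the threshold. Tsp42Ef lost its call without any 1 of the 9 libraries (adjusted p = 0.0593 to 0.124), and Tsp42Ee without any but homozygote 1 (adjusted p = 0.0572 to 0.125 without the others). Tsp42Er lost it without homozygote 3, any heterozygote, wild type 1 or wild type 3 (adjusted p = 0.0528 to 0.103), and Tsp42El without homozygote 1 or 3, heterozygote 1 or 3, or wild type 1 or 3 (adjusted p = 0.0528 to 0.109). Quantile normalization lowered the log2 fold change of Tsp42Ee to 0.05 (adjusted p = 0.885), of Tsp42Ef to 0.11 (adjusted p = 0.527), of Tsp42Er to 0.34 (adjusted p = 0.249) and of Tsp42El to 0.25 (adjusted p = 0.105).

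Tsp42Ep, on the minus strand near the far end of the cluster (7054405 to 7057548), had the largest fall. It was at 3.48, 30.1 and 31.4 FPKM in homozygotes, 92.5, 71.1 and 95.8 FPKM in heterozygotes and 77.6, 90.5 and 93.0 FPKM in wild types. Every homozygote lay below every other library, and homozygote 1 lay far below the other homozygotes. The log2 fold change against wild types was -2.41 (SE 0.69, adjusted p = 0.044, limma), and -2.39 (adjusted p = 0.0806) against heterozygotes. Without homozygote 1 it was -1.47 (adjusted p = 0.00248) against wild types and -1.45 (adjusted p = 0.00332) against heterozygotes. The call against wild types was lost without homozygote 3, any 1 heterozygote or any 1 wild type (adjusted p = 0.0554 to 0.108). Tsp42Eo lies within the span of Tsp42Ep on the other strand, overlapping it over 1860 bases, and whether the counting used strand is not given in the sources used here. Tsp42Eo did not show the fall, with 8.75, 5.39 and 7.90 FPKM in homozygotes, 10.2, 8.13 and 8.05 FPKM in heterozygotes and 6.23, 7.04 and 5.84 FPKM in wild types, with overlap between homozygotes and both other genotypes.

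Tsp42Ej/Tsp42Ek fell as well. Tsp42Ej is known as sunglasses, which in photoreceptors carries rhodopsin to the lysosome, and it overlaps Tsp42Ek by 107 bases on the same strand. The locus was at 41.9, 80.5 and 86.4 FPKM in homozygotes, 124, 111 and 136 FPKM in heterozygotes and 129, 141 and 147 FPKM in wild types. All homozygotes lay below all other libraries, with homozygote 1 the lowest. The log2 fold change was -1.05 (SE 0.25, adjusted p = 0.0285) against wild types and -0.89 (adjusted p = 0.081, limma) against heterozygotes, and without homozygote 1 it was -0.73 (adjusted p = 0.0106) against wild types and -0.56 (adjusted p = 0.0378) against heterozygotes. The call against wild types was lost without wild type 1 (adjusted p = 0.0652), wild type 3 (adjusted p = 0.0875) or heterozygote 2 (adjusted p = 0.0509).

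Both loci that fell were lowest in homozygote 1, as was the salivary gland sum given above. Of the 7 salivary gland markers, Sgs8, a glue protein gene, passed the threshold (log2 fold change -2.52, adjusted p = 0.0441, limma), and the median over the list was -2.11. Homozygotes 2 and 3 lay below all other libraries in this sum too. The pattern was not particular to the salivary gland. The fat body marker Fbp1 was at 25.0, 871 and 1608 FPKM in homozygotes 1 to 3 and 5448 to 7758 FPKM in the other libraries. The imaginal disc marker Dll was at 4.43, 9.40 and 6.89 FPKM, and 9.76 to 13.2 FPKM in the others. The fat body list as a sum was lowest in homozygote 2, at 12911 FPKM. The part of salivary gland or other tissue RNA in the 2 falls was not tested.

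**Figure D4:**
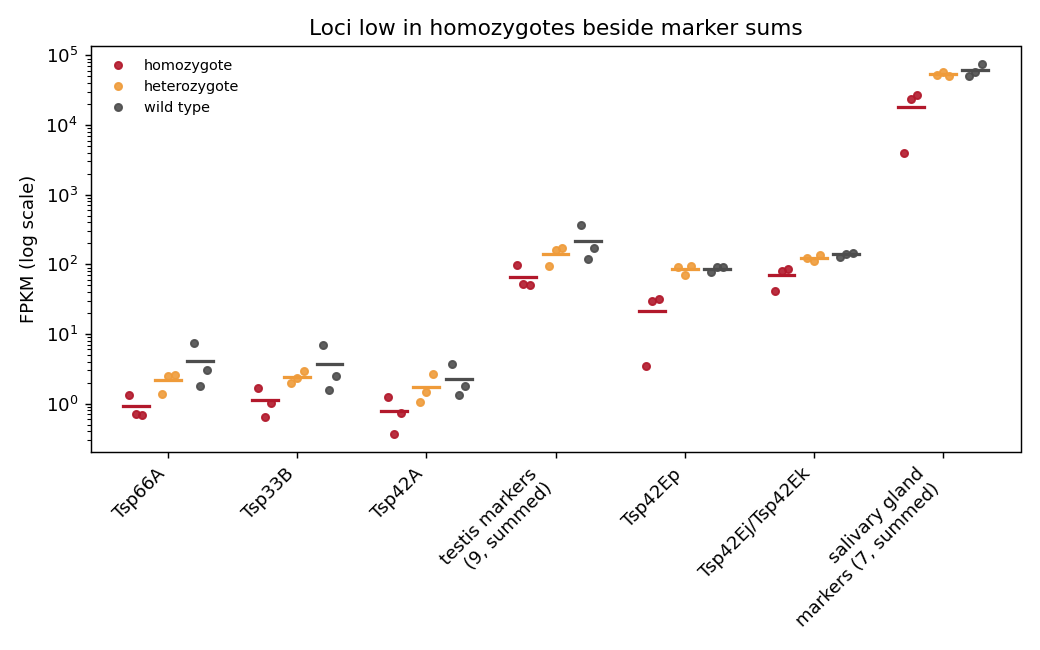
FPKM on a log scale for 5 tetraspanin loci low in homozygotes, beside the summed FPKM of 9 testis markers and 7 salivary gland markers. Each point is 1 library and bars are means. Tsp66A, Tsp33B, Tsp42A and the testis sum are highest in wild type 1; Tsp42Ep, Tsp42Ej/Tsp42Ek and the salivary gland sum are lowest in homozygote 1.

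The remaining tested loci of the cluster did not pass the threshold. Tsp42Eq, on the minus strand, was at 50.6, 26.9 and 42.5 FPKM in homozygotes, 36.0, 28.0 and 28.9 FPKM in heterozygotes and 21.4, 29.0 and 16.8 FPKM in wild types (log2 fold change against wild types 0.80, adjusted p = 0.0629). It passed without homozygote 2 (1.05, adjusted p = 0.0227) or wild type 2 (0.99, adjusted p = 0.0357, limma), and was at 0.61 (adjusted p = 0.15) without homozygote 1 and 0.62 (adjusted p = 0.179) without wild type 3. Tsp42Eg varied most within each genotype, with 48.0, 14.7 and 28.8 FPKM in homozygotes, 25.4, 12.5 and 12.6 FPKM in heterozygotes and 8.44, 21.6 and 9.55 FPKM in wild types (log2 fold change 1.12, adjusted p = 0.132). Tsp42Ea, whose locus also carries CG30159, was at 63.7, 42.7 and 49.0 FPKM in homozygotes, 46.0, 38.1 and 37.3 FPKM in heterozygotes and 33.8, 48.3 and 33.9 FPKM in wild types (log2 fold change 0.41, adjusted p = 0.143); without wild type 2 it was 0.58 (adjusted p = 0.0498), and without homozygote 1 it was 0.26 (adjusted p = 0.354). These 3 loci were highest in the same library of each genotype: homozygote 1, heterozygote 1 and wild type 2. In all, 7 of the 30 tested loci had this pattern: the 3 just named, Tsp42Eo, and the called Tsp42Eb/Tsp42Ec, Tsp29Fa and Tsp29Fb. The share of all tested loci with this pattern was not counted, so the 7 are not read as a result about the family. Over all tested loci, deviations from the genotype mean correlated at 0.668 between wild type 2 and heterozygote 1. The correlation was 0.256 between wild type 2 and homozygote 1, and 0.131 between heterozygote 1 and homozygote 1. Homozygote 3 correlated more with both, at 0.514 with wild type 2 and 0.397 with heterozygote 1. The sum of the 9 muscle markers, none of them called or at 0, was also highest in homozygote 1, heterozygote 1 and wild type 2. It was 23651, 8443 and 19741 FPKM in homozygotes, 18028, 11852 and 11576 FPKM in heterozygotes and 5941, 15439.6 and 7093 FPKM in wild types. The pattern was not particular to muscle. Marker sums of midgut enterocytes, trachea, hindgut and Malpighian tubule, and crystal cells of the blood were highest in the same libraries, as was the sum of the integrin list given below. The part of any of these lists in the values of these 7 loci was not tested.

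Tsp42Ei, Tsp42Eh and lbm showed no call in any comparison. Tsp42Ei averaged 17.7 ± 5.68 FPKM in homozygotes, 13.6 ± 1.31 in heterozygotes and 14.2 ± 0.995 in wild types (SD, n = 3 each), and Tsp42Eh averaged 15.2 ± 1.74 FPKM in homozygotes, 15.2 ± 2.81 in heterozygotes and 15.5 ± 5.29 in wild types. For lbm the means were 6.04 ± 2.80 FPKM in homozygotes, 4.99 ± 0.774 in heterozygotes and 8.14 ± 2.37 in wild types, a log2 fold change of -0.41 in homozygotes against wild types (adjusted p = 0.329, limma). Tsp42En, below the filter, was at 1.92, 0.705 and 1.16 FPKM in homozygotes, 0.538, 0.453 and 0.254 FPKM in heterozygotes and 0.383, 0.431 and 0.150 FPKM in wild types, so that every homozygote lay above every other library. With no filter on low values its log2 fold change against wild types was 0.75 (adjusted p = 0.045).

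Tsp29Fa and Tsp29Fb lie next to each other on arm 2L (8933962 to 8936096 and 8937390 to 8939743, both on the plus strand) and had the highest mean FPKM of the family in every genotype. Tsp29Fa was at 395, 336 and 378 FPKM in homozygotes, 278, 265 and 254 FPKM in heterozygotes and 181, 246 and 185 FPKM in wild types. Its 3 genotypes did not overlap, with heterozygotes between the others. The log2 fold change was 0.87 (SE 0.14, adjusted p = 0.00653) in homozygotes against wild types and 0.47 (adjusted p = 0.088) against heterozygotes. Tsp29Fb was at 498, 368 and 435 FPKM in homozygotes, 392, 337 and 308 FPKM in heterozygotes and 239.6, 309 and 211 FPKM in wild types. Homozygotes lay above wild types, and heterozygotes overlapped both other genotypes. Like the sums of muscle and of the other lists named with it above, both genes were highest in homozygote 1, heterozygote 1 and wild type 2. The log2 fold change was 0.78 (SE 0.18, adjusted p = 0.0253) in homozygotes against wild types and 0.32 (adjusted p = 0.283, limma) against heterozygotes. Heterozygotes against wild types stood at 0.40 for Tsp29Fa (unadjusted p = 0.0222, adjusted p = 0.699) and 0.46 for Tsp29Fb (unadjusted p = 0.0357, adjusted p = 0.80), short of the threshold. The rise of Tsp29Fa over wild types kept its call with any 1 library left out (adjusted p = 0.00288 to 0.0362), and against heterozygotes it passed without wild type 2 (adjusted p = 0.0369), with an adjusted p of up to 0.258 when another library was left out. The rise of Tsp29Fb lost its call without homozygote 3 (adjusted p = 0.0797), wild type 1 (adjusted p = 0.0755) or wild type 3 (adjusted p = 0.0848).

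Tsp2A had the largest rise outside the cluster. The Tsp2A protein forms, with Ssk, Mesh and Hoka, the smooth septate junction that seals the epithelium of the midgut and the Malpighian tubules. Tsp2A (arm X, 1346553 to 1348143, plus strand) was at 110.1, 87.1 and 83.5 FPKM in homozygotes, 54.6, 39.6 and 40.1 FPKM in heterozygotes and 46.4, 34.3 and 24.5 FPKM in wild types. Homozygotes lay above all other libraries, and heterozygotes overlapped wild types. The mean was 2.67 times that of wild types, with a log2 fold change of 1.43 (SE 0.24, adjusted p = 0.00759) against wild types and 1.05 (adjusted p = 0.0383, limma) against heterozygotes. The call against wild types held with any 1 library left out (adjusted p = 0.00677 to 0.0244). That against heterozygotes was lost without any 1 homozygote, any 1 heterozygote or wild type 2 (adjusted p = 0.0554 to 0.152). Tsp2A lies within the gene MTPAP on the other strand, listed as CG11418, which had 5.84 to 8.60 FPKM in homozygotes, 4.58 to 5.47 FPKM in heterozygotes and 4.64 to 5.85 FPKM in wild types.

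The genes of its 3 known junction partners rose too. Ssk, a membrane protein, was at 209.9, 173 and 174 FPKM in homozygotes, 106, 101 and 98.7 FPKM in heterozygotes and 117.9, 91.7 and 78.2 FPKM in wild types (log2 fold change against wild types 0.96, SE 0.16, adjusted p = 0.00685). The gene mesh was at 133, 101 and 115 FPKM in homozygotes, 81.2, 63.6 and 62.2 FPKM in heterozygotes and 59.3, 67.2 and 40.2 FPKM in wild types (1.08, SE 0.21, adjusted p = 0.0129). For hoka, listed as CG13704, values were 140.2, 125 and 123 FPKM in homozygotes, 79.7, 77.0 and 71.0 FPKM in heterozygotes and 81.5, 83.2 and 54.7 FPKM in wild types (0.84, SE 0.16, adjusted p = 0.0134, limma). In all 3 the homozygotes lay above every other library. Against heterozygotes, Ssk (adjusted p = 0.0169) and hoka (adjusted p = 0.0309) passed the threshold and mesh (adjusted p = 0.0709) did not. The 13 enterocyte markers, which stand for midgut cells, overlapped between the genotypes in their sum: it ran from 1758 to 3997 FPKM in homozygotes, 3312 to 4789 FPKM in heterozygotes and 2585 to 4722 FPKM in wild types. This sum rests largely on a few abundant genes such as betaTry, a trypsin gene at 746 to 2467 FPKM, and the median log2 fold change of the list against wild types was 0.45. Of these markers only the amylase gene Amy-d rose against wild types (log2 fold change 1.92, adjusted p = 0.0429, limma), and none was at 0. Before adjustment 5 were higher and 1 lower at p under 0.05, beside 19.5% and 21.6% of all tested loci. The part of midgut tissue in the rise of Tsp2A and its partner genes was not tested.

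**Figure D5:**
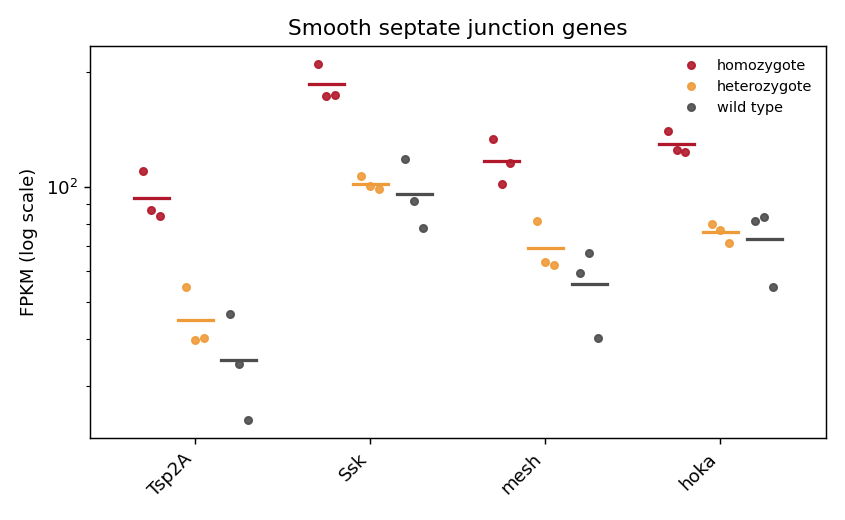
FPKM on a log scale of Tsp2A and the 3 partner genes of the smooth septate junction, Ssk, mesh and hoka. Each point is 1 library and bars are means of 3. All homozygotes lie above all heterozygotes and wild types in each gene.

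Genes of the pleated septate junction, the counterpart in ectodermal epithelia such as epidermis and trachea, moved less as a list. Of 18 tested, 4 rose and none fell, beside 12.3% of all tested loci called higher and 9.67% lower, with a median of 0.11. The 3 with the smallest adjusted p were cora, a scaffold gene, at a mean of 94.8 FPKM in homozygotes, 69.9 in heterozygotes and 60.7 in wild types (log2 fold change 0.64, adjusted p = 0.00599), the polarity gene l(2)gl (0.74, adjusted p = 0.0061) and Gli, which encodes the gliotactin of corners where cells meet (0.37, adjusted p = 0.0176, limma). Whether the 2 junction lists differ was not tested.

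Tsp3A, Tsp26A and Tsp86D are the fly members of the tetraspanin group that binds the ADAM protease Kuzbanian and helps it reach the cell surface, where it cuts Notch. Tsp86D was at 25.1, 26.4 and 21.7 FPKM in homozygotes, 19.2, 17.8 and 16.9 FPKM in heterozygotes and 17.9, 17.9 and 20.4 FPKM in wild types. Its homozygotes lay above all other libraries. The log2 fold change was 0.36 (SE 0.10, adjusted p = 0.0412) against wild types and 0.42 (adjusted p = 0.0448, limma) against heterozygotes. The call against wild types was lost without any 1 library but homozygote 3 (adjusted p = 0.0526 to 0.11), and that against heterozygotes likewise (adjusted p = 0.0577 to 0.166). With quantile normalization neither passed (0.27, adjusted p = 0.128, against wild types and 0.33, adjusted p = 0.152, against heterozygotes).

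The other members of that group had lower values in homozygotes that did not pass. Tsp3A was at 9.64, 12.5 and 9.55 FPKM in homozygotes, 10.8, 9.95 and 10.7 FPKM in heterozygotes and 11.7, 13.1 and 13.1 FPKM in wild types (log2 fold change -0.25, adjusted p = 0.134). Tsp26A was at 5.57, 8.26 and 6.21 FPKM in homozygotes, 7.14, 7.59 and 7.12 FPKM in heterozygotes and 7.36, 7.88 and 7.83 FPKM in wild types (-0.19, adjusted p = 0.279). In both, homozygotes 1 and 3 lay below the wild types; homozygote 2 lay among the wild types in Tsp3A and above all other libraries in Tsp26A. Without homozygote 2 both passed, Tsp3A at -0.36 (adjusted p = 0.0242) and Tsp26A at -0.34 (adjusted p = 0.0306, limma). Over the libraries left out in turn, Tsp3A went as near to no change as -0.18 (adjusted p up to 0.34) and Tsp26A as -0.09 (adjusted p up to 0.629). None of 15 genes of Kuzbanian and the Notch pathway was called in homozygotes against wild types in limma, beside 22% of all tested loci, and their median was -0.12. At an unadjusted p under 0.05, 2 were lower and none higher, beside 21.6% and 19.5% of all tested loci. The most abundant, Psn, the presenilin of the gamma-secretase that cuts Notch after Kuzbanian, averaged 54.2 FPKM in homozygotes, 53.0 in heterozygotes and 54.3 in wild types. Kuzbanian itself, kuz, named here outside the rule, averaged 14.7 FPKM in homozygotes, 11.9 in heterozygotes and 14.6 in wild types. None of 11 Notch target genes of the E(spl) complex was called, with a median of -0.40. At an unadjusted p under 0.05, 6 of these were lower, beside the same 21.6% of all tested loci. The most abundant, E(spl)malpha-BFM, averaged 16.6 FPKM in homozygotes, 27.7 in heterozygotes and 33.0 in wild types (log2 fold change -1.10, adjusted p = 0.0944).

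Tsp96F rose by a moderate and even amount. It was at 19.5, 20.2 and 17.9 FPKM in homozygotes, 12.9, 12.5 and 11.3 FPKM in heterozygotes and 15.1, 12.7 and 12.6 FPKM in wild types. Homozygotes lay above every other library, and averaged 19.2 ± 1.16 FPKM (SD, n = 3). The log2 fold change was 0.48 (SE 0.10, adjusted p = 0.0143) against wild types and 0.61 (adjusted p = 0.00878, limma) against heterozygotes. The call against heterozygotes held with any 1 library left out (adjusted p = 0.00695 to 0.0452), and that against wild types was lost without wild type 3 (adjusted p = 0.0619). Tsp96F lies 1.82 Mb from Atg6 on arm 3R, so an effect of the Atg6 mutation and one of linked variants on the mutant chromosome cannot be told apart. On the same arm are Tsp97E at 2.91 Mb, which was not called, and Tsp86D at 13.2 Mb.

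Tsp66A, Tsp33B and Tsp42A were scarce and lower in homozygotes without passing the threshold. Tsp66A, whose locus also carries CG42661, was at 1.33, 0.711 and 0.688 FPKM in homozygotes, 1.39, 2.49 and 2.59 FPKM in heterozygotes and 7.36, 1.81 and 2.99 FPKM in wild types (log2 fold change -1.27, adjusted p = 0.0513). Tsp33B, whose locus also carries CG14937, was at 1.70, 0.651 and 1.03 FPKM in homozygotes, 1.98, 2.29 and 2.97 FPKM in heterozygotes and 7.0, 1.59 and 2.53 FPKM in wild types (-1.01, adjusted p = 0.0969). Tsp42A, which lies outside the Tsp42E cluster, was at 1.26, 0.369 and 0.727 FPKM in homozygotes, 1.06, 1.47 and 2.66 FPKM in heterozygotes and 3.70, 1.33 and 1.81 FPKM in wild types (-0.84, adjusted p = 0.097, limma). In all 3 genes wild type 1 was the highest library, homozygote 1 the highest homozygote and heterozygote 1 the lowest heterozygote. Without wild type 2, Tsp66A passed at -1.61 (adjusted p = 0.0243) and Tsp33B at -1.35 (adjusted p = 0.0371), and Tsp66A passed with a pseudocount of 0.1 (-1.86, adjusted p = 0.0391). Without wild type 1 the values shrank, to -0.83 (adjusted p = 0.0938) for Tsp66A, -0.54 (adjusted p = 0.195) for Tsp33B and -0.55 (adjusted p = 0.259) for Tsp42A. The 9 testis markers had the same highs and lows, with sums of 97.1, 52.1 and 51.3 FPKM in homozygotes, 93.4, 158 and 170.4 FPKM in heterozygotes and 367, 119 and 169 FPKM in wild types. Of these markers, aly, dj, Mst84Da, betaTub85D and twe fell in homozygotes against wild types, none rose and none was at 0. The part of testis RNA in these 3 tetraspanin loci was not tested.

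The other tetraspanins outside the cluster were not called in any comparison. Tsp66E averaged 27.5 ± 4.71 FPKM in homozygotes, 31.2 ± 0.273 in heterozygotes and 31.4 ± 5.82 in wild types, and Tsp74F averaged 19.2 ± 5.91 FPKM in homozygotes, 19.95 ± 2.29 in heterozygotes and 18.7 ± 2.40 in wild types (SD, n = 3 each). Tsp39D averaged 10.2 ± 0.866 FPKM in homozygotes, 10.3 ± 0.943 in heterozygotes and 9.71 ± 0.752 in wild types. Tsp97E averaged 18.1 ± 1.46 FPKM in homozygotes, 20.1 ± 0.989 in heterozygotes and 20.95 ± 1.05 in wild types (log2 fold change -0.20, adjusted p = 0.111). Tsp5D averaged 0.611 ± 0.269 FPKM in homozygotes, 0.781 ± 0.0583 in heterozygotes and 1.19 ± 0.0649 in wild types; as it passed the filter only through the wild types, no test of it is given. Below the filter, Tsp47F averaged 0.724 FPKM in homozygotes, 0.727 in heterozygotes and 0.821 in wild types, and Tsp68C 0.209 FPKM in homozygotes, 0.307 in heterozygotes and 0.446 in wild types. The second locus of Tsp5D ran from 0 to 0.157 FPKM in homozygotes, 0 to 0.506 FPKM in heterozygotes and 0.0684 to 0.422 FPKM in wild types.

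In heterozygotes against wild types no tetraspanin locus was called, beside 0.211% of all tested loci (0.147% higher and 0.0643% lower). Before adjustment, at p under 0.05, Tsp29Fa, Tsp29Fb and Tsp42Eo were higher and none was lower in limma, beside 3.39% and 2.32% of all tested loci. Tsp42Eo had a log2 fold change of 0.41 there (adjusted p = 0.835). The 3 heterozygotes lay above the 3 wild types in 2 of the 30 loci, Tsp29Fa and Tsp42Eo, and below them in 2, Tsp3A and Tsp5D, beside 8.25% and 6.18% of all tested loci. Tsp5D had to lie below here as well, since it entered the test only through the wild types.

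In homozygotes against heterozygotes, which share the homozygote libraries with the first comparison, 6 of 30 loci rose (20.0%) and none fell, beside 6.27% of all tested loci called higher and 1.42% called lower (7.7% in either direction). The 6 were Tsp42Eb/Tsp42Ec, Tsp42Ed, Tsp42Ee, Tsp2A, Tsp86D and Tsp96F. At an unadjusted p under 0.05, 10 of the 30 loci were higher and 2 lower, beside 14.8% and 11.4% of all tested loci. The 3 homozygotes lay above the 3 heterozygotes in 10 loci and below them in 4, beside 17.5% and 15.6% of all tested loci. The 4 were Tsp42Ep, Tsp42Ej/Tsp42Ek, Tsp66A and Tsp33B. Tsp42Ee stood at 0.46 (adjusted p = 0.0453, limma), and it lost the call without any 1 library but homozygote 1 (adjusted p = 0.0573 to 0.174). Without homozygote 1, 5 loci rose and 2 fell, beside 5.37% of all tested loci called higher and 1.26% called lower in that setting. The 2 were Tsp42Ep and Tsp42Ej/Tsp42Ek. Tsp42Er was called only in that setting (0.67, adjusted p = 0.0471, limma).

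Integrins, the adhesion receptors that tetraspanins bind in flies and mammals, and their cytoplasmic partners rose in homozygotes as a list, with 13 of 15 higher against wild types, beside 12.3% of all tested loci, none lower and a median of 0.74. The integrin beta subunit mys was at 186, 181 and 151 FPKM in homozygotes, 63.0, 55.8 and 55.3 FPKM in heterozygotes and 55.0, 61.3 and 54.3 FPKM in wild types (log2 fold change 1.58, adjusted p = 0.000168). The alpha subunit ItgalphaPS4 was at 112, 132 and 109.7 FPKM in homozygotes, 0.494, 0.417 and 1.08 FPKM in heterozygotes and 2.26, 3.24 and 0.341 FPKM in wild types (5.48, adjusted p = 0.000183). The other beta subunit, listed as Itgbetanu, averaged 29.4 FPKM in homozygotes, 9.50 in heterozygotes and 8.13 in wild types (1.74, adjusted p = 0.000208, limma). All 3 had homozygotes far above the other libraries, which overlapped each other. Of this list mys and ItgalphaPS4 are also among the 7 lamellocyte markers above.

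Genes for sorting into and release of endosomal vesicles, which carry tetraspanins in their membranes, gave 11 of 19 higher, beside 12.3% of all tested loci, none lower and a median of 0.47. Vps36, a subunit of an ESCRT complex, averaged 24.0 FPKM in homozygotes, 18.2 in heterozygotes and 16.7 in wild types (log2 fold change 0.49, adjusted p = 0.00404). The small GTPase gene Rab35 averaged 48.2 FPKM in homozygotes, 34.1 in heterozygotes and 33.2 in wild types (0.53, adjusted p = 0.00411). ALiX, an ESCRT adaptor, averaged 75.8 FPKM in homozygotes, 43.2 in heterozygotes and 42.4 in wild types (0.82, adjusted p = 0.00546, limma). Of 10 genes of late endosome and lysosome membranes, 1 rose, a share near the 12.3% of all tested loci, and none fell, with a median of 0.21: spin, a lysosomal transporter, averaged 29.2 FPKM in homozygotes, 19.5 in heterozygotes and 19.7 in wild types (0.54, adjusted p = 0.0133). Against heterozygotes 12 of the 15 integrin list genes, 8 of the 19 vesicle genes and 1 of the 10 late endosome genes rose, and none fell. In that comparison 6.27% of all tested loci were called higher and 1.42% lower, and the 1 of 10 is near that share. In heterozygotes against wild types none of the partner lists held a call, and none of their genes passed an unadjusted p of 0.05 in limma. TM4SF, a tetraspanin relative that the name rule does not take, was at 8.05, 6.84 and 6.70 FPKM in homozygotes, 9.36, 9.10 and 11.9 FPKM in heterozygotes and 6.63, 9.48 and 8.89 FPKM in wild types, with no call.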

How the data were processed

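RNA of 9 whole-larva libraries, 3 per genotype, was analysed from the table that the authors deposited, which gives FPKM for each gene. HISAT2 2.1.0, Cufflinks 2.2.1, limma and build dm6 appear in the submitters' processing notes; what each did, the annotation and the strand setting of the counting: not given in the sources used here. Libraries were strand-specific, per the labels' protocols. The table had 50244 lines for 15809 loci, since lines are repeated; 1 line per locus was kept. Of the loci, 818 carry more than 1 gene name, whose values cannot be separated.

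Loci with at least 1 FPKM in at least 3 libraries (10887) were fitted together on log2(FPKM + 1) with limma 3.58.1 in R 4.3.3 (lmFit, contrasts.fit, eBayes with trend), with 1 spread shared by the 3 genotypes and Benjamini-Hochberg adjustment over all tested loci at 0.05. The pseudocount of 1 understates changes of low genes. The fit was tested on simulated data. Depth is unknown in absolute terms; counts were not used here, so no counting error can be given. Positions came from Ensembl release 115.

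The members and gene lists were chosen with earlier results of these data known. Values in every library are given for members past the threshold and the 8 most abundant; partner lists give up to 3 genes per direction with the smallest adjusted p, or the most abundant gene where none passed. Further members were named after their values were seen. List entries aka, Vps37A, trpml and ChAT matched no locus, and no sequences are shown. Alternatives were other pseudocounts, filters and scalings, no trend, a replicate block, the fit of 2 genotypes alone, repeated lines as deposited (added after seeing the data) and leaving out each library.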

Additional observations from a re-analysis of the deposited data

How the results depend on the processing

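Of 24 values followed through up to 19 alternatives (the 19 calls, and Tsp42Eg, Tsp42Eq, Tsp33B, Tsp66A and Tsp42A in homozygotes against wild types), none changed direction. Of the calls, 4 of the 13 in homozygotes against wild types (Tsp29Fa, Tsp42Eb/Tsp42Ec, Tsp42Ed and Tsp2A) and 2 of the 6 against heterozygotes (Tsp42Eb/Tsp42Ec and Tsp96F) passed in all of them. The count of loci higher in homozygotes than in wild types, 11, was 6 with quantile normalization (beside 9.8% of all tested loci, against 12.3% as reported), 4 when only the 2 genotypes were fitted (5.42%), and 4 to 10 with 1 library left out (5.41 to 15.3%). The count of lower loci, 2, was 0 when only the 2 genotypes were fitted (1.4%, against 9.67% as reported) and 0 to 5 with 1 library left out (1.33 to 15.5%); the 5, without homozygote 2, added Tsp3A, Tsp26A and Tsp5D, of which Tsp5D entered the test only through the wild types. Against heterozygotes the 6 higher loci were 3 with quantile normalization (4.12%, against 6.27% as reported) and 2 to 5 with 1 library left out (2.37 to 5.84%), and the lower loci, 0 in all other settings, were 0 to 2. Heterozygotes against wild types gave 0 calls in every alternative. Where 1 library or genotype is left out, fewer libraries remain to estimate the spread; other causes were not tested.

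With the replicate block, 5 loci were higher and 1 lower in homozygotes than in wild types, beside 6.89% and 1.98% of all tested loci. The replicate numbers share only a label: deviations of libraries with the same number correlated from -0.647 to 0.331. No library correlated best with a library of its own number. Absolute depth is unknown, so values near or below 1 FPKM are the least certain.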
